A study of Homo sapiens with 12 samples.

Results

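The 52 genes described here encode the machinery that copies DNA and the E2F transcription factors, with their partners, that switch this machinery on. They were chosen by symbol and fall into 12 groups by role, and they are 52 of the 63677 genes in the count table. All 52 passed the filter on low counts, the lowest value of any of them in a sample being 61 counts, so none was left out. RNA was sequenced from Huh7 cells, a human hepatocellular carcinoma line, in 12 samples that fall into 4 groups of 3, all collected at 6 h. The groups were cells left in medium alone (untreated), cells given graphene oxide (GO) at 400 µg/mL, cells given GO esterified with the ginsenoside Rg3 (GO–Rg3) at 400 µg/mL, and cells given GO–Rg3 carrying non-covalently loaded doxorubicin (GO–Rg3–DOX) at 100 µg/mL. Huh7 is 1 line, nothing in the labels says that the replicates were separate cultures, and p-values therefore measure only the spread between these samples, which may be technical. GO–Rg3–DOX was given at another dose than the other materials, so its values are printed beside theirs and were tested against untreated cells alone. Total counts ranged from 27802871 to 38877420 per sample.

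In G1, the retinoblastoma family of pocket proteins holds E2F factors inactive, and phosphorylation by cyclin D and cyclin E kinases releases them. Active E2F factors then raise the transcription of genes for origin licensing, the MCM helicase, polymerases, the sliding clamp and nucleotide synthesis, while the atypical factors E2F7 and E2F8 repress the same targets later in the cycle. Licensing itself loads the MCM helicase on origins through ORC, CDC6 and CDT1, and geminin blocks further loading in the same cycle. Doxorubicin intercalates into DNA and poisons topoisomerase II.

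Many of these genes carry the letters of E2F sites near their transcription start. RefSeq promoters (GRCh38.p14, 250 bases before to 50 after the start) were found for 43 of the 52 genes. Matches to TTTCCCGC, TTTCGCGC, TTTGGCGC or TTTGCCGC on either strand were present in 20 of these 43 promoters (46.5%), against 908 of the 27305 promoters in the whole table (3.33%). The 20 were those of E2F1, E2F2, E2F3, RBL1, CDC6, CDT1, MCM2, MCM3, MCM6, MCM7, GINS1, GINS2, GINS3, POLA1, POLA2, POLE, PCNA, RFC3, LIG1 and TYMS. In CDC6, MCM2 and GINS1 the only matches lie after the start. CCAAT was present in 23 of the 43 (53.5%; all promoters, 35.7%), TTTGAA in 2 (4.7%; all promoters, 15.43%) and TATAAA in 2 (4.7%; all promoters, 11.95%). The 120 bases before the start are shown for the 5 genes with the largest changes after GO–Rg3–DOX whose match lies wholly within them, with the matches in capitals. A match is only a run of letters and was not tested as a binding site.
RBL1: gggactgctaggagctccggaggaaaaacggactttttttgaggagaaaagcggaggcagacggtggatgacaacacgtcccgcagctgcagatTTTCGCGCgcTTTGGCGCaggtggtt
PCNA: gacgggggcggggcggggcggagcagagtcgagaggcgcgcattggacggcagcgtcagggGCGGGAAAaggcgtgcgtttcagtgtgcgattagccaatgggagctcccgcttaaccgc
RFC3: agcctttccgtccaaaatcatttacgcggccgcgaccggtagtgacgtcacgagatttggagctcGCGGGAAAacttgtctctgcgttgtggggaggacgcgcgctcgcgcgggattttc
LIG1: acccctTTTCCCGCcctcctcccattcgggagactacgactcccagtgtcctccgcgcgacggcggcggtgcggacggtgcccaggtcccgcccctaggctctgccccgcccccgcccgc
E2F3: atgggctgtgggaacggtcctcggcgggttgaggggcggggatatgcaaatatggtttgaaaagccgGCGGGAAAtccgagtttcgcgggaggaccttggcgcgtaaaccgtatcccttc
RBL1 (chr20:37095998-37096117, minus strand) holds TTTCGCGC and TTTGGCGC close together, starting 26 and 16 bases before the transcription start. PCNA (chr20:5126623-5126742, minus strand), RFC3 (chr13:33818029-33818148, plus strand) and E2F3 (chr6:20401759-20401878, plus strand) each hold TTTCCCGC read on the other strand, starting 59, 55 and 53 bases before it. In LIG1 (chr19:48170345-48170464, minus strand) the same letters stand on the gene's own strand, 114 bases before the start. For contrast, 3 genes that fell by more than 2-fold after GO–Rg3–DOX have none of the 4 exact E2F sequences in the RefSeq window. The 120 bases before their start therefore carry no capitals. Near matches were not searched, and RFC4 holds attcccgc, which differs from TTTCCCGC in its first letter alone. ORC2 holds gcgggaga, which differs from GCGGGAAA (TTTCCCGC read on the other strand) in its next-to-last letter alone.
GMNN: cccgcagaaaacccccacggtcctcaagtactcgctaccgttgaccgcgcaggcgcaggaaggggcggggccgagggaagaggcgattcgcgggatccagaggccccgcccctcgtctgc
RFC4: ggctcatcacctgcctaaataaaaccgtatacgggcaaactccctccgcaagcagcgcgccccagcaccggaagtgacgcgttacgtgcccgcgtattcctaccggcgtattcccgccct
ORC2: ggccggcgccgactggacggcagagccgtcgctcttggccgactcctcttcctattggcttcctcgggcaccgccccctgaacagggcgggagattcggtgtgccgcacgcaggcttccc
These lie at chr6:24774817-24774936, plus strand (GMNN), chr3:186806483-186806602, minus strand (RFC4) and chr2:200963661-200963780, minus strand (ORC2). In the windows with a promoter entry, a match was present for 7 of the 19 genes that fell after GO–Rg3–DOX, 6 of the 12 that rose and 7 of the 12 that passed in neither direction. After GO it was present for 9 of the 22 that fell. Genes with these letters thus stood among those that rose as well as among those that fell.

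Levels are normalized read counts (CPM, scaled by edgeR's TMM method), and a gene is said to have risen or fallen at a Benjamini-Hochberg adjusted p below 0.01 in edgeR's quasi-likelihood test over the 17092 genes tested. The comparisons ask what each material did to these genes in cells, and how GO–Rg3 differed from GO at the same dose. The paper reports that loading Rg3 also made the flakes larger and thicker and their surface charge less negative. These changes and the ester itself cannot be told apart here. After GO, 27 of the 52 genes fell (51.9%; 15.4% of all genes tested) and 2 rose (3.85%; 12.1% of all genes). More than 2-fold changes were found in 2 that fell (3.85%; 2.62% of all genes) and in none that rose, by edgeR or DESeq2 (0 at an unadjusted p under 0.05 and that size; 3.84% of all genes). The median log2 fold change of the 52 was -0.40, beside 0.01 for all genes tested. After GO–Rg3, 0 fell (0.105% of all genes) and 0 rose (0.0585% of all genes) in edgeR, and 0 passed the test with a more than 2-fold change downwards (0.0468% of all genes) or upwards (0.0117% of all genes). At an unadjusted p under 0.05, 8 were lower and 2 higher after GO–Rg3, and DESeq2 called 3 lower (GMNN, PCNA and RPA3) and 1 higher (CDK6). Over all genes tested, DESeq2 called 259 lower and 72 higher. Without GO replicate 1, which enters the shared estimate of the spread, edgeR called GMNN and RPA3 lower, and without GO–Rg3 replicate 2 it called RPA3, by more than 2-fold. The median there was -0.06, beside 0.00 for all genes.

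After GO–Rg3–DOX, 20 of the 52 fell (38.5%; 30.5% of all genes tested) and 16 rose (30.8%; 25.5% of all genes), with a median of -0.08 against -0.06 for all genes. With libraries scaled by their totals alone the split was 25 lower and 3 higher, the 3 being POLD1, LIG1 and TK1, so the other 13 rises after GO–Rg3–DOX did not pass under that scaling. Of all 17092 genes tested, 7297 were lower and 2149 higher under it. By more than 2-fold, 14 fell (26.9%; 18.2% of all genes) and 1 rose (1.92%; 12.6% of all genes). Between the materials at the same dose, 14 were higher after GO–Rg3 than after GO (26.9%; 7.34% of all genes) and 0 lower in edgeR (6.25% of all genes; 1 at an unadjusted p under 0.05, 0 in DESeq2). No member differed by more than 2-fold between them, either lower (2.07% of all genes) or higher (0.702% of all genes), by edgeR or DESeq2 and also at an unadjusted p under 0.05. The median of GO–Rg3 against GO was 0.25, beside -0.02 for all genes. The GO comparisons share the GO samples and 3 share the untreated samples, so the same low or high value enters more than 1 of them. Without regard to size, the share that fell after GO stood well above that of all genes. By that rule the shares in both directions after GO–Rg3–DOX stood near those of all genes. By more than 2-fold, the share that rose after GO–Rg3–DOX was 1.92% against 12.6%, and the share that fell 26.9% against 18.2%. These shares depend on the setting and the cut. With an offset for the GC content of exons 6 fell past 2-fold. LIG1 and TK1 stood just under 2-fold in edgeR (0.997 and 0.96) and above it in DESeq2 (1.07 and 1.03). The 52 had at least 61 counts in each sample, and their shares were not compared with genes of like counts. The distributions of the 52 and of all genes are drawn together for each comparison.

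**Figure D1:**
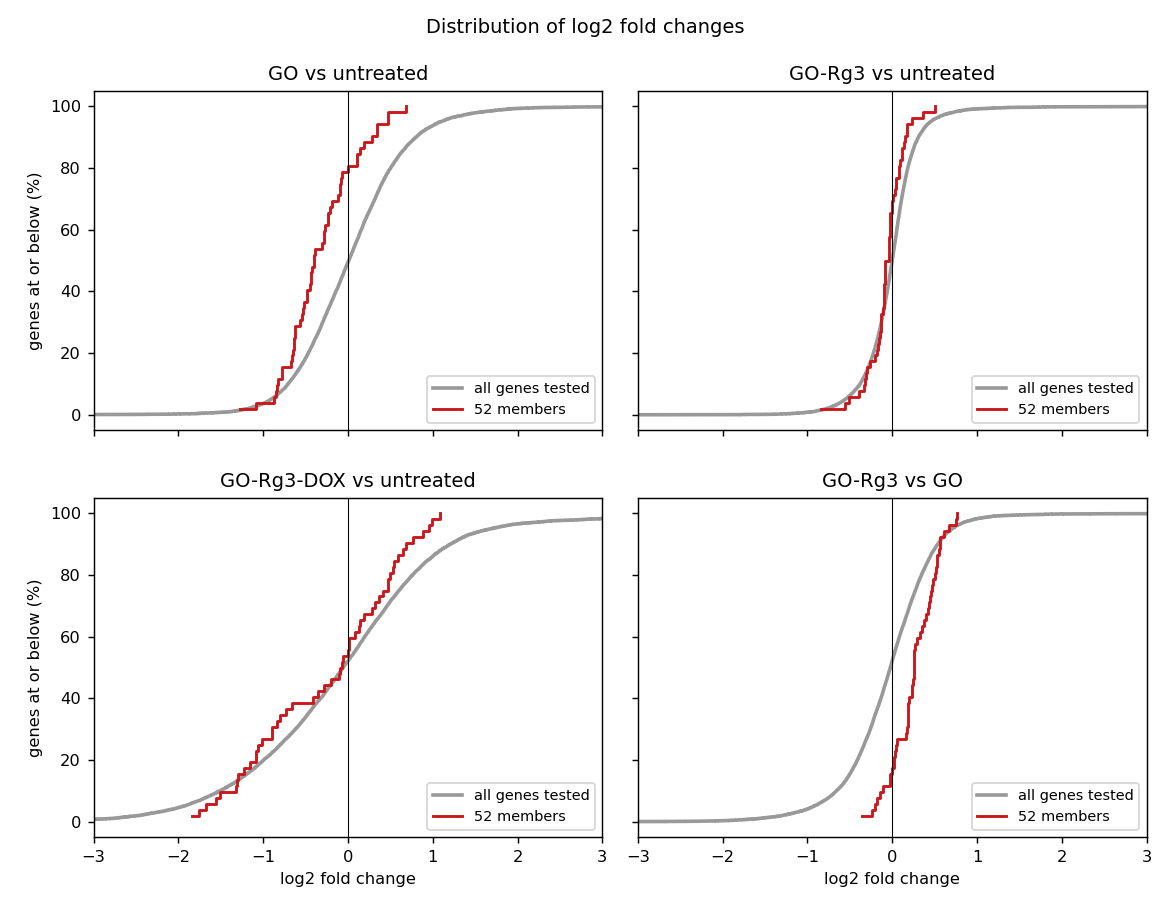
Cumulative share (%) of genes at or below each log2 fold change, for all genes tested (grey) and the 52 DNA replication and E2F genes (red), in 4 comparisons; the axis is drawn from -3 to 3. The red line lies left of the grey one after GO (medians -0.40 and 0.01), close to it after GO–Rg3, and right of it for GO–Rg3 against GO (0.25 and -0.02). After GO–Rg3–DOX the medians are close (-0.08 and -0.06), but the red line ends at 1.08 while the grey one runs on.

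The libraries differed in ways that stand beside these counts. Mitochondrial genes took 5.31 to 6.28% of the counts in untreated samples and 6.89 to 7.42% after GO–Rg3, but 12.1 to 24.1% after GO and 12.8 to 19.4% after GO–Rg3–DOX. GO replicate 1, with the 24.1%, stood apart from the other GO samples (Pearson correlation of log2 CPM 0.985 and 0.986, against 0.995 between those). Its part in the results was not tested beyond leaving it out, which left 26 genes lower after GO, all among the 27, and 3 higher. Of all 17092 genes tested, 2687 were then lower and 1812 higher. The cells carried their defining markers, with albumin at 4109 to 4181 CPM and AFP at 12160 to 12430 CPM in untreated samples. The 10 hepatocyte and hepatoma markers summed to 24770 to 24910 CPM in untreated samples, 15800 to 18960 with GO, 19340 to 23050 with GO–Rg3 and 33300 to 38650 with GO–Rg3–DOX. AFP was the largest part, and single markers did not all follow the sum. With GO, ALB, AFP, TF, FGB and GPC3 lay below all untreated samples, but HNF4A (352 to 378 CPM untreated, 545 to 574 with GO) and SERPINA1 above them. With GO–Rg3–DOX, HNF4A was lower (158 to 209 CPM), AFP overlapped and the others were higher. Immune markers (4 genes) stayed at or below 0.412 CPM in sum, endothelial ones (3 genes, PECAM1 at 0) at or below 0.700, and fibroblast and stellate ones (4 genes) between 3.65 and 5.46, or 10.4 to 14.04 after GO–Rg3–DOX. In bulk RNA, fewer cells in S phase and less RNA of these genes per cell cannot be told apart.

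**Figure D2:**
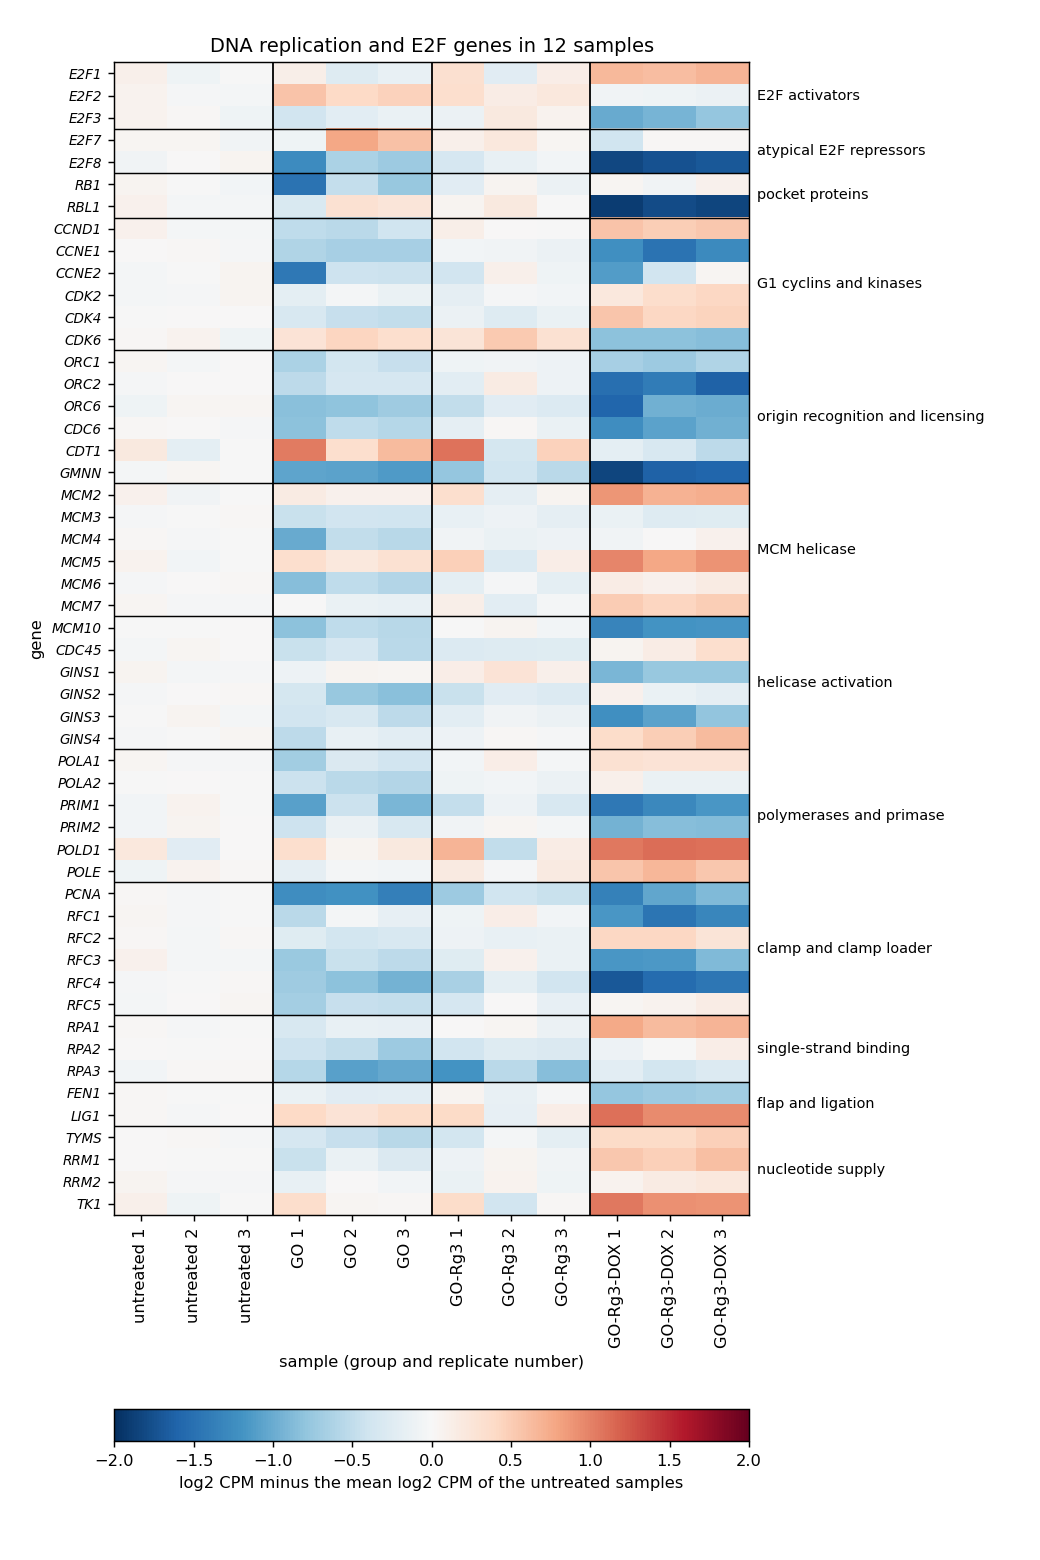
Level of each of the 52 genes (rows, grouped by role) in each of the 12 samples (columns), as log2 CPM minus the mean log2 CPM of the 3 untreated samples; blue is lower and red higher, and the scale runs from -2 to 2. The GO columns are mostly blue, the GO–Rg3 columns pale, and the GO–Rg3–DOX columns hold both strong blue (RBL1, E2F8, GMNN, ORC2) and red (POLD1, LIG1, TK1).

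Among the activating E2F factors, E2F1 rose after GO–Rg3–DOX (log2 fold change 0.65, SE 0.13, adjusted p = 4.29e-04), from 114.4, 100.9 and 106.6 CPM in untreated samples to 167, 164 and 172 CPM, without overlap. That call was lost with an offset for the GC content of exons (0.19, adjusted p = 0.0164) and with library totals alone (0.23, adjusted p = 0.126), and with the offset E2F1 was lower after GO (-0.44, adjusted p = 6.94e-05). E2F3, another activator, stood at 31.6, 30.4 and 28.2 CPM in the untreated samples, 23.1, 25.9 and 27.3 with GO, 27.6, 34.2 and 31.5 with GO–Rg3, and 15, 15.7 and 17.6 with GO–Rg3–DOX. Every GO and GO–Rg3–DOX sample lay below every untreated one. E2F3 fell after GO–Rg3–DOX (log2 fold change -0.90, SE 0.11, adjusted p = 4.78e-06) and did not pass the test after GO (log2 fold change -0.24, SE 0.11, adjusted p = 0.0924). E2F2 was 1 of the 2 genes that rose after GO, from 18.9, 17.7 and 17.5 to 26.6, 23.8 and 24.7 CPM (log2 fold change 0.47, SE 0.095, adjusted p = 0.00115), with all 3 GO samples above all untreated ones. The other, CDK6, lost its call when any 1 of the untreated samples, GO replicate 2 or GO replicate 3 was left out, and then E2F2 was the 1 gene that rose. With library totals alone neither passed.

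E2F8 (ENSG00000129173, GRCh37 chr11:19245610-19263167, minus strand), an atypical repressor, stood at 35.1, 37 and 38.2 CPM in the untreated samples, 15.3, 23.7 and 22.1 with GO, 29, 33.2 and 35.4 with GO–Rg3, and 10.4, 11 and 11.3 with GO–Rg3–DOX. Its GO samples lay below all untreated and GO–Rg3 samples, and its GO–Rg3–DOX samples below all untreated ones. E2F8 fell after GO (log2 fold change -0.84, SE 0.14, adjusted p = 2.49e-04) and after GO–Rg3–DOX (log2 fold change -1.75, SE 0.14, adjusted p = 5.56e-08), and was higher after GO–Rg3 than after GO (log2 fold change 0.67, SE 0.14, adjusted p = 0.00285), a call lost without GO–Rg3 replicate 3 (0.60, adjusted p = 0.0188). E2F7, its close relative, did not pass after any treatment, at log2 fold changes of 0.48 after GO and -0.10 after GO–Rg3–DOX. Without GO replicate 1, however, E2F7 was higher after GO (0.69, adjusted p = 7.36e-04, edgeR), as it was with the GC content offset (0.63, adjusted p = 0.00319), and lower after GO–Rg3 than after GO (-0.57, adjusted p = 0.0059).

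Each of the 2 pocket proteins changed after 1 treatment. RBL1 (ENSG00000080839, GRCh37 chr20:35624752-35724400, minus strand) encodes p107, a pocket protein related to RB1, and it stood at 23.2, 21.1 and 21.2 CPM in the untreated samples, 17.7, 26.9 and 25.7 with GO, 22.7, 25.1 and 21.6 with GO–Rg3, and 5.85, 6.32 and 6.13 with GO–Rg3–DOX. The GO–Rg3–DOX samples lay below every untreated sample. RBL1 had the lowest log2 fold change of the 52 after GO–Rg3–DOX (log2 fold change -1.84, SE 0.15, adjusted p = 4.03e-08) and did not pass after GO (log2 fold change 0.11, SE 0.13, adjusted p = 0.551), though with the GC content offset it was higher there (0.42, adjusted p = 0.00201). RB1, the retinoblastoma protein gene, fell after GO (log2 fold change -0.84, SE 0.18, adjusted p = 0.00161), which did not pass when only the 6 samples of the comparison were fitted (-0.83, adjusted p = 0.0132). After GO–Rg3–DOX it stood at 0.02 (SE 0.17), and with the GC content offset it was higher (0.58, adjusted p = 3.93e-04). Its GO samples were 19.6, 39.4 and 32.2 CPM against 56.8, 54.2 and 52.7 CPM in untreated samples, the lowest being GO replicate 1.

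Of the 6 G1 cyclins and kinases, 3 fell and 1 rose after GO (15.4% and 12.1% of all genes tested), and 2 fell and 3 rose after GO–Rg3–DOX (30.5% and 25.5% of all genes). CCNE1 (ENSG00000105173, GRCh37 chr19:30302898-30315219, plus strand), cyclin E1, which drives CDK2 at the entry to S phase, stood at 18.5, 18.7 and 18.2 CPM in the untreated samples, 12.2, 11.7 and 11.7 with GO, 17.7, 17.5 and 17.1 with GO–Rg3, and 7.86, 6.61 and 7.66 with GO–Rg3–DOX. Untreated samples lay above those of each treatment without overlap, and the GO samples below the GO–Rg3 ones. CCNE1 fell after GO (log2 fold change -0.64, SE 0.099, adjusted p = 1.65e-04) and after GO–Rg3–DOX (log2 fold change -1.32, SE 0.1, adjusted p = 3.14e-08) and was higher after GO–Rg3 than after GO (log2 fold change 0.56, SE 0.099, adjusted p = 0.00112). CCND1, cyclin D1, fell after GO (-0.48) and rose after GO–Rg3–DOX (0.53), where the GC content offset moved it to -0.03. Of the 2 kinases that pair with it, CDK4 fell after GO (-0.42) and rose after GO–Rg3–DOX (0.47), whereas CDK6 rose after GO (0.35) and fell after GO–Rg3–DOX (-0.83, adjusted p = 2.24e-06). CDK2, the partner of cyclin E, rose after GO–Rg3–DOX (0.32), and with libraries scaled by their totals alone it stood at -0.09. CCNE2 did not pass in either comparison, was lower after GO with a block for replicate number (-0.72, adjusted p = 0.00504), and its exons overlap INTS8 on the other strand by 1629 bases, a gene with 19472 counts in all against 2142 for CCNE2.

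In origin recognition and licensing, 5 of the 6 genes fell after GO (15.4% of all genes tested) and 5 after GO–Rg3–DOX (30.5% of all genes), with CDT1 passing in neither (median log2 fold changes -0.55 and -1.12). With the GC content offset CDT1 fell too after GO–Rg3–DOX, which made 6 of 6 there (4751 of all 17092 genes tested). ORC2, a core subunit of the origin recognition complex, stood at 57.3, 58.4 and 58.5 CPM in the untreated samples, 40.5, 46 and 46.1 with GO, 50.2, 65.2 and 54.2 with GO–Rg3, and 20.5, 22.1 and 18.9 with GO–Rg3–DOX. GO and GO–Rg3–DOX samples were all below the untreated ones. ORC2 fell after GO–Rg3–DOX (log2 fold change -1.505, SE 0.11, adjusted p = 2.03e-08), while its fall after GO (log2 fold change -0.39, SE 0.11, adjusted p = 0.00924) did not pass under 11 of the 16 other settings tried, leaving out any 1 of the untreated or GO samples among them (adjusted p over all settings 0.00305 to 0.241). ORC6, the smallest subunit, stood at 58.6, 63.6 and 63.8 CPM in the untreated samples, 34.6, 35.7 and 37.8 with GO, 44.2, 52.9 and 51.2 with GO–Rg3, and 20.7, 31.9 and 31.1 with GO–Rg3–DOX. No sample of any treatment reached the lowest untreated one, and no GO sample the lowest GO–Rg3 one. ORC6 fell after GO (log2 fold change -0.78, SE 0.14, adjusted p = 4.17e-04) and after GO–Rg3–DOX (log2 fold change -1.15, SE 0.14, adjusted p = 3.14e-06). ORC1 fell by less, at -0.48 after GO and -0.66 after GO–Rg3–DOX.

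CDC6, the ATPase that joins ORC in loading the helicase, stood at 134, 133 and 131 CPM in the untreated samples, 75.5, 93.7 and 89.7 with GO, 117.8, 135 and 121.2 with GO–Rg3, and 56.2, 63.1 and 68.1 with GO–Rg3–DOX. Again the GO and GO–Rg3–DOX samples lay below all untreated ones, and the GO samples below the GO–Rg3 ones. CDC6 fell after GO (log2 fold change -0.62, SE 0.1, adjusted p = 2.94e-04) and GO–Rg3–DOX (log2 fold change -1.09, SE 0.1, adjusted p = 3.06e-07), and was higher after GO–Rg3 than after GO (log2 fold change 0.53, SE 0.1, adjusted p = 0.00208). GMNN (ENSG00000112312, GRCh37 chr6:24775159-24786327, plus strand) encodes geminin, the inhibitor of CDT1, and stood at 91.7, 96.5 and 93.8 CPM in the untreated samples, 45.3, 44.8 and 43 with GO, 54.8, 71.7 and 65 with GO–Rg3, and 26.3, 30.7 and 31.3 with GO–Rg3–DOX. Untreated samples lay above those of each treatment without overlap, and the GO samples below the GO–Rg3 ones. GMNN fell after GO (log2 fold change -1.08, SE 0.11, adjusted p = 4.97e-06) and after GO–Rg3–DOX (log2 fold change -1.68, SE 0.11, adjusted p = 5.42e-09), and after GO–Rg3 it was lower in all 3 samples without passing (log2 fold change -0.56, SE 0.11, adjusted p = 0.0197), but passed with the replicate block (-0.57, adjusted p = 0.00712). CDT1, the protein that geminin inhibits, did not pass after any treatment, at 0.69 after GO and -0.35 after GO–Rg3–DOX. After GO–Rg3–DOX it was lower with the GC content offset (-0.99, adjusted p = 5.89e-06) and without a filter (-0.43, adjusted p = 0.00409), and after GO it was higher with the replicate block (0.67, adjusted p = 0.00439) and without a filter (0.66, adjusted p = 8.78e-06). It had the widest spread of the 52 among GO–Rg3 samples (59.8, 22.2 and 38.8 CPM).

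**Figure D3:**
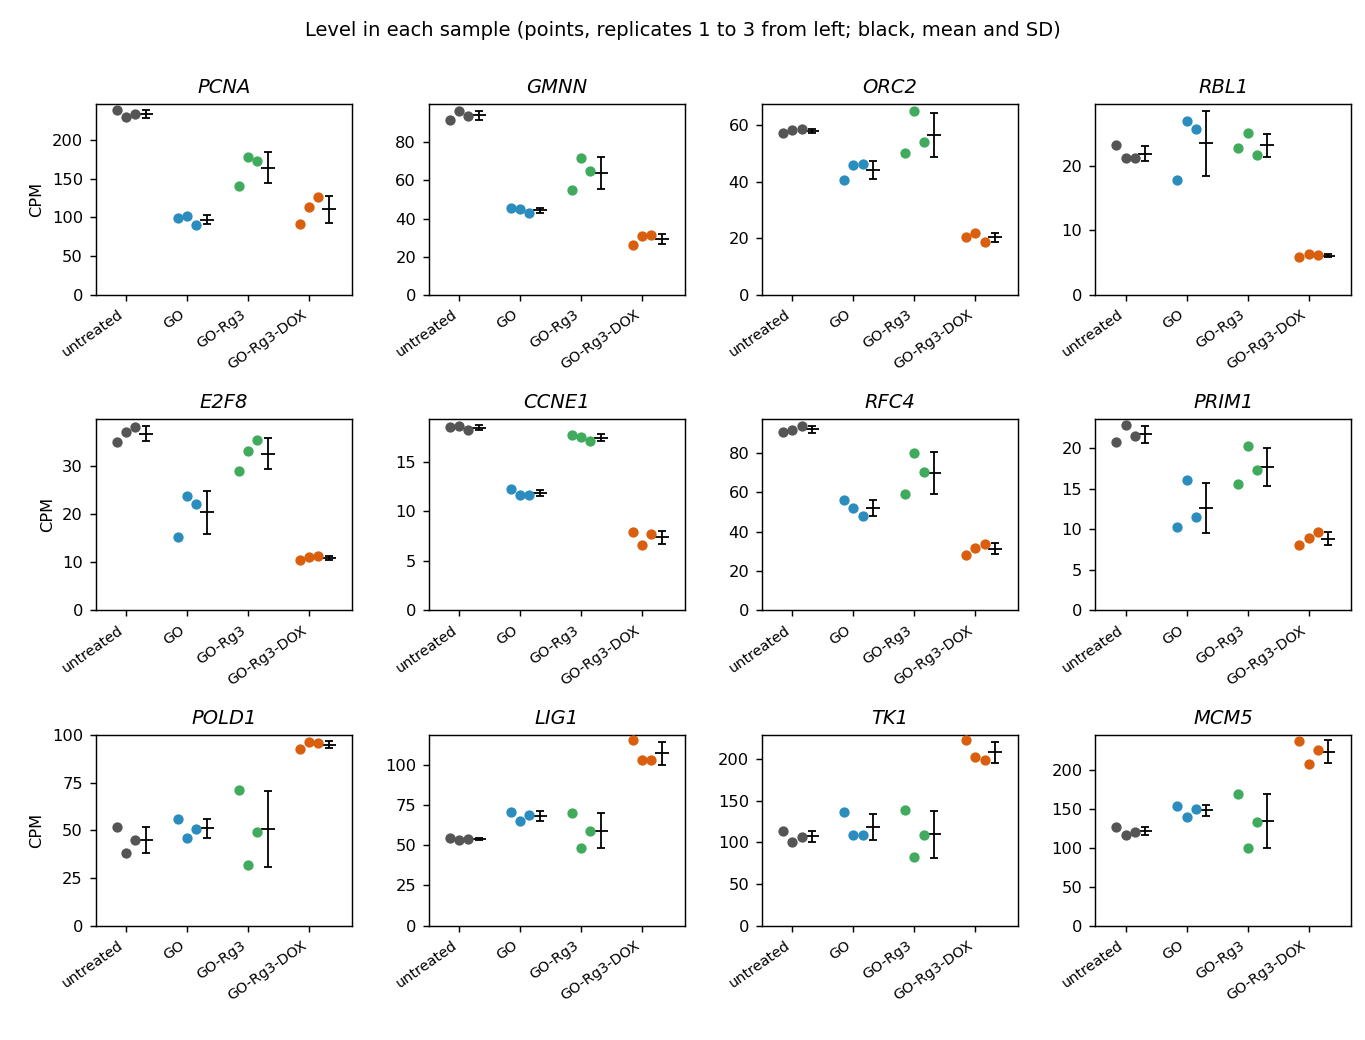
CPM in each sample for 12 of the genes (points; replicates 1 to 3 from left to right in each group; black marks, mean and SD; n = 3 per group). In PCNA, GMNN, ORC2, E2F8, CCNE1, RFC4 and PRIM1 both the GO and the GO–Rg3–DOX samples lie below the untreated ones, in RBL1 the GO–Rg3–DOX samples lie below the untreated ones, and in POLD1, LIG1, TK1 and MCM5 they lie above the untreated ones.

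The MCM helicase, a ring of 6 subunits that unwinds DNA at the fork, had 3 of its 6 subunits higher after GO–Rg3–DOX (25.5% of all genes tested) and 3 lower after GO (15.4% of all genes). MCM2, MCM5 and MCM7 rose after GO–Rg3–DOX, and MCM3, MCM4 and MCM6 did not pass. With the GC content offset MCM6 was higher there as well (0.55, adjusted p = 4.15e-06), and with library totals alone none of the 3 rises passed in edgeR and MCM3 was lower (-0.62, adjusted p = 4.53e-05). After GO it was the latter 3 that fell (MCM3 -0.40, MCM4 -0.67, MCM6 -0.64) and the former 3 that did not pass, MCM7 being lower with the GC content offset (-0.26, adjusted p = 0.00802). MCM5 stood at 126.5, 116.3 and 120.1 CPM in the untreated samples, 153, 139.7 and 149.9 with GO, 169, 99.6 and 133 with GO–Rg3, and 237, 207 and 224 with GO–Rg3–DOX. All GO and GO–Rg3–DOX samples were above the untreated ones, and the GO–Rg3 samples spread widely. MCM5 rose after GO–Rg3–DOX (log2 fold change 0.88, SE 0.14, adjusted p = 5.58e-05), and with library totals alone stood at 0.46, adjusted p = 0.0103. MCM2 rose by 0.77 and MCM7 by 0.48 on the log2 scale. MCM7 and MCM3 were the most abundant subunits in untreated cells per length of exon, at 168 and 150.1 CPM per kb, followed by MCM6 at 71.5, MCM2 at 54, MCM4 at 42 and MCM5 at 16.6 CPM per kb. These lengths join the exons of every annotated transcript, so that order depends on the annotation.

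Factors that turn the loaded ring into an active helicase moved in both directions. MCM10, which is needed for the helicase to start unwinding, stood at 88.8, 88.4 and 89.2 CPM in the untreated samples, 50.5, 62.3 and 60.5 with GO, 88.1, 92.1 and 85 with GO–Rg3, and 35.7, 38.6 and 39.1 with GO–Rg3–DOX. The GO samples lay below the untreated and GO–Rg3 samples, and the GO–Rg3–DOX samples below the untreated ones. MCM10 fell after GO (log2 fold change -0.62, SE 0.095, adjusted p = 1.52e-04) and GO–Rg3–DOX (log2 fold change -1.23, SE 0.096, adjusted p = 3.35e-08) and was higher after GO–Rg3 than after GO (log2 fold change 0.61, SE 0.095, adjusted p = 4.11e-04). GINS3, a subunit of the GINS complex that binds the ring with CDC45, stood at 13.1, 13.6 and 12.8 CPM in the untreated samples, 10.1, 10.6 and 9.16 with GO, 11.3, 12.6 and 12.1 with GO–Rg3, and 5.6, 6.25 and 7.62 with GO–Rg3–DOX. Its samples of each treatment lay below the untreated ones without overlap. GINS3 fell after GO–Rg3–DOX (log2 fold change -1.02, SE 0.12, adjusted p = 3.70e-06) and did not pass after GO (-0.40, adjusted p = 0.0143), where it passed with the GC content offset (-0.40, adjusted p = 0.00549). Within the same complex GINS1 also fell after GO–Rg3–DOX (-0.81), GINS4 rose (0.50) and GINS2 did not pass (-0.07, or -0.50 and lower with library totals alone), whereas after GO it was GINS2 (-0.64) and CDC45 (-0.44) that fell. With the GC content offset GINS1 was higher after GO (0.29, adjusted p = 0.00297).

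Of the 6 polymerase and primase genes, PRIM1 and PRIM2 fell and POLD1 and POLE rose after GO–Rg3–DOX (30.5% and 25.5% of all genes tested). PRIM1, the catalytic subunit that makes RNA primers, stood at 20.8, 22.8 and 21.5 CPM in the untreated samples, 10.3, 16.1 and 11.6 with GO, 15.6, 20.3 and 17.3 with GO–Rg3, and 8.07, 8.87 and 9.64 with GO–Rg3–DOX. The samples of each treatment did not overlap with the untreated ones, and 1 GO sample overlapped with the GO–Rg3 range. PRIM1 fell after GO (log2 fold change -0.78, SE 0.15, adjusted p = 9.33e-04) and GO–Rg3–DOX (log2 fold change -1.29, SE 0.16, adjusted p = 3.23e-06); its exons overlap NACA, an abundant gene on the same strand, by 139 bases. PRIM2, the other subunit, fell after GO–Rg3–DOX (-0.89), though near-identical pseudogene sequence makes its count uncertain. POLD1 (ENSG00000062822, GRCh37 chr19:50887461-50921275, plus strand), the catalytic subunit of polymerase delta, was the 1 gene of the 52 that rose by more than 2-fold, and stood at 51.6, 38 and 44.7 CPM in the untreated samples, 56, 46.1 and 50.8 with GO, 71.1, 31.5 and 49.2 with GO–Rg3, and 92.7, 96.5 and 95.6 with GO–Rg3–DOX. The GO–Rg3–DOX samples lay above the untreated ones, while GO–Rg3 samples differed from each other by more than 2-fold. POLD1 rose after GO–Rg3–DOX (log2 fold change 1.08, SE 0.21, adjusted p = 2.65e-04), by 0.98 to 1.20 on the log2 scale when 1 sample was left out. It fell short of 2-fold without untreated replicate 2, which left 0 genes past that size in edgeR, while LIG1 and TK1 joined it without untreated replicate 1 (3 genes) and LIG1 without GO–Rg3–DOX replicate 2 or 3 (2 genes). POLE, polymerase epsilon, rose by 0.59 on the log2 scale. POLA1 and POLA2, which carry primase in the same complex, fell after GO (-0.44 and -0.51) and did not pass after GO–Rg3–DOX. With the GC content offset POLA1 was higher after GO–Rg3–DOX (0.76, adjusted p = 1.36e-07) and its fall after GO did not pass (-0.15, adjusted p = 0.106), while with library totals alone POLA2 was lower after GO–Rg3–DOX (-0.48, adjusted p = 7.00e-04).

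**Figure D4:**
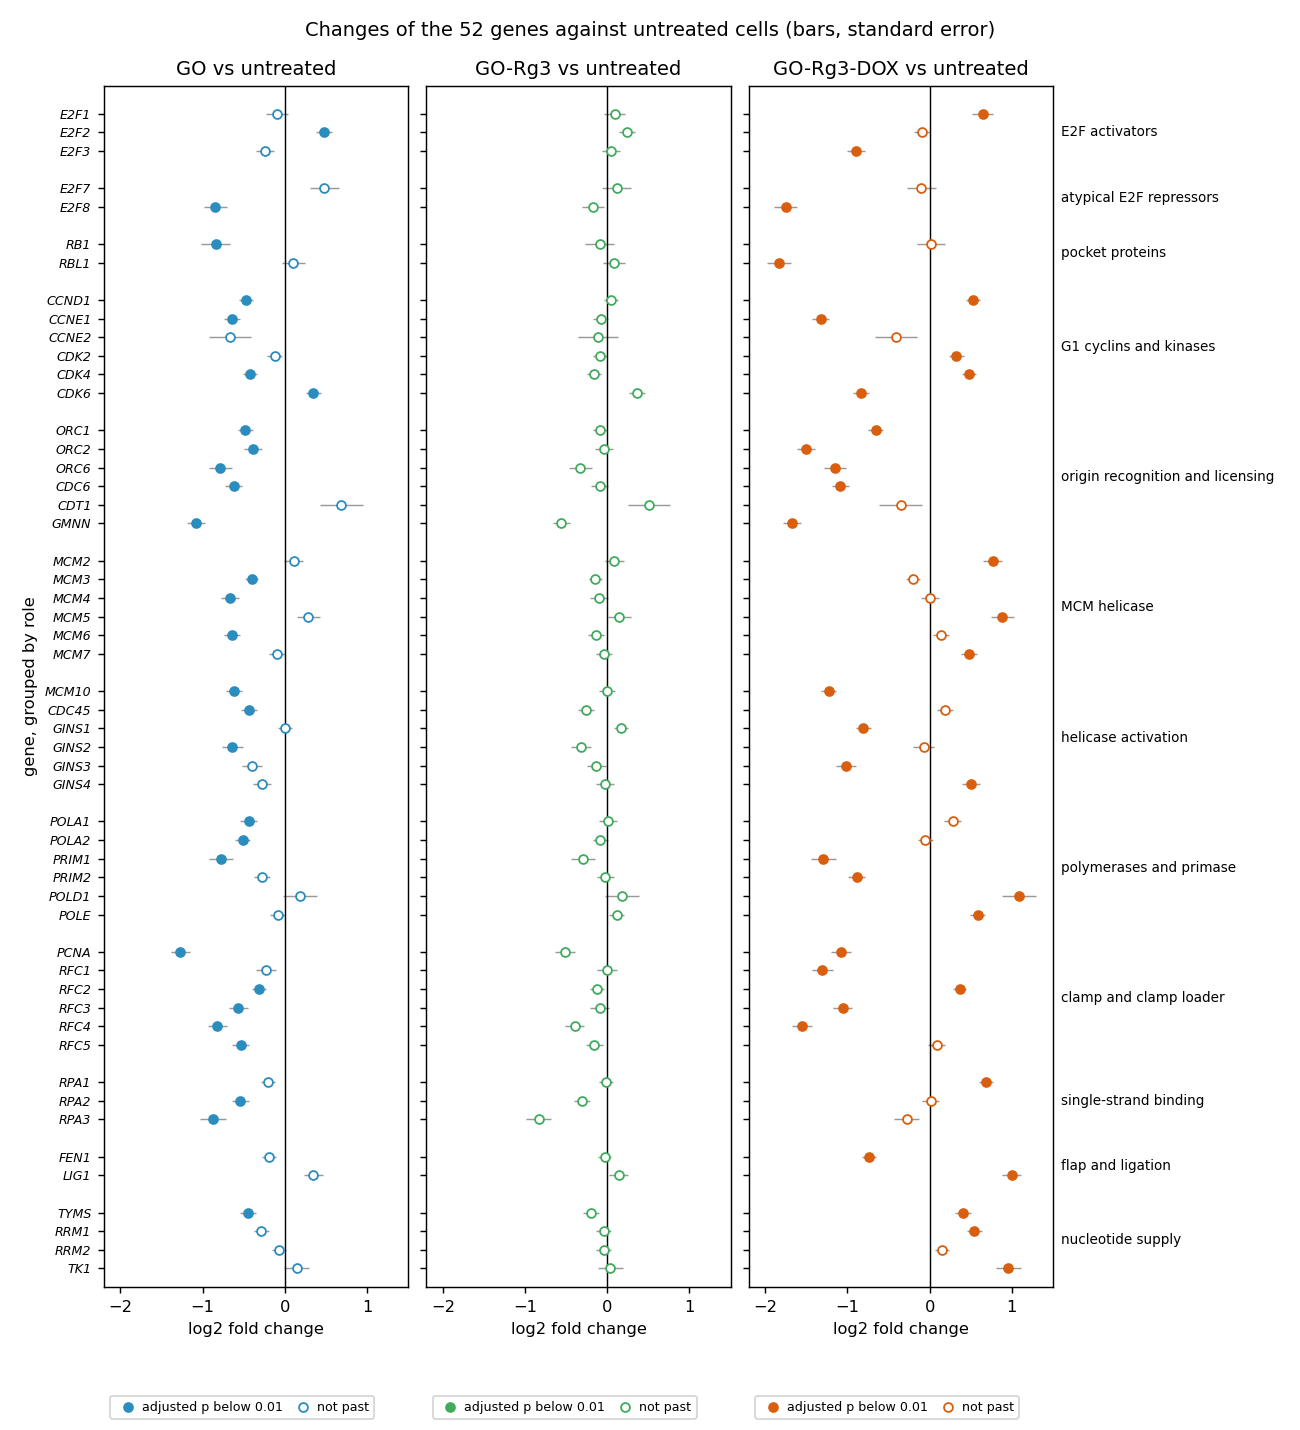
Log2 fold change of each of the 52 genes against untreated cells in 3 panels, 1 a treatment (horizontal axis; bars, standard error; filled points, adjusted p below 0.01 in edgeR), grouped by role. Filled points are 27 left and 2 right of 0 after GO, absent after GO–Rg3, and 20 left and 16 right of 0 after GO–Rg3–DOX.

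PCNA (ENSG00000132646, GRCh37 chr20:5095599-5107272, minus strand), the sliding clamp that holds polymerases on DNA, showed the lowest log2 fold change of the 52 after GO. It stood at 239, 229 and 234 CPM in the untreated samples, 98.9, 101.4 and 90.2 with GO, 141, 178 and 172 with GO–Rg3, and 92.1, 113.5 and 126.3 with GO–Rg3–DOX. The untreated samples lay above those of each treatment, and GO–Rg3 samples lay between these and the GO samples without overlap. PCNA fell after GO (log2 fold change -1.27, SE 0.12, adjusted p = 3.06e-06) and after GO–Rg3–DOX (log2 fold change -1.08, SE 0.12, adjusted p = 1.27e-06), and was lower after GO–Rg3 without passing (log2 fold change -0.51, SE 0.12, adjusted p = 0.0447). At the same dose it was higher after GO–Rg3 than after GO (log2 fold change 0.76, SE 0.12, adjusted p = 4.52e-04), and this held under each of the 16 other settings (0.62 to 0.91). PCNA and GMNN were the 2 genes that fell by more than 2-fold after GO. Without GO replicate 1, RPA3 did so as well (-1.06, adjusted p = 8.87e-05, edgeR).

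The clamp loader, a pentamer of RFC1 to RFC5 that opens PCNA, had 3 subunits lower and 1 higher after GO–Rg3–DOX (30.5% and 25.5% of all genes tested). RFC1, its large subunit, stood at 92.9, 88.9 and 90.4 CPM in the untreated samples, 62.3, 88.7 and 80.8 with GO, 85.3, 99 and 87.7 with GO–Rg3, and 40.3, 33.1 and 36.8 with GO–Rg3–DOX. Its GO–Rg3–DOX and GO samples lay below the untreated ones. RFC1 fell after GO–Rg3–DOX (log2 fold change -1.31, SE 0.12, adjusted p = 2.79e-07) and did not pass after GO (log2 fold change -0.23, SE 0.12, adjusted p = 0.138). RFC3 stood at 57.5, 52.8 and 53.1 CPM in the untreated samples, 32.4, 40 and 37.8 with GO, 46, 57.6 and 49.6 with GO–Rg3, and 24.3, 24.6 and 29.6 with GO–Rg3–DOX. GO and GO–Rg3–DOX samples were both below the untreated range. RFC3 fell after GO (log2 fold change -0.57, SE 0.12, adjusted p = 0.00138) and GO–Rg3–DOX (log2 fold change -1.06, SE 0.12, adjusted p = 1.44e-06), and its higher level after GO–Rg3 than after GO (log2 fold change 0.47, SE 0.12, adjusted p = 0.00823) was lost under 6 of 16 settings, among them without GO replicate 1 or 3 and without GO–Rg3 replicate 2 or 3 (0.38 to 0.49). RFC4, which overlaps EIF4A2 by 18 exonic bases, stood at 90.4, 91.5 and 93.8 CPM in the untreated samples, 56.2, 52.1 and 47.8 with GO, 58.9, 80.1 and 70.4 with GO–Rg3, and 28.2, 31.8 and 33.8 with GO–Rg3–DOX. As for GMNN, untreated samples lay above those of each treatment, and GO samples below the GO–Rg3 ones. RFC4 fell after GO (log2 fold change -0.82, SE 0.11, adjusted p = 7.70e-05) and GO–Rg3–DOX (log2 fold change -1.55, SE 0.12, adjusted p = 2.35e-08). Unlike these, RFC2 rose after GO–Rg3–DOX (0.36; -0.06 with library totals alone), and RFC5 did not pass (0.09). After GO, RFC2 (-0.31) and RFC5 (-0.54) fell with RFC3 and RFC4, the fall of RFC2 not passing with the 6 samples alone (-0.30, adjusted p = 0.0102) or without any 1 of the untreated samples.

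RPA, the complex that coats single-stranded DNA, has 3 subunits. RPA1, the large subunit, stood at 121.6, 117.98 and 118.9 CPM in the untreated samples, 96.1, 107.8 and 106.5 with GO, 119.9, 122.6 and 110.7 with GO–Rg3, and 202, 185 and 191 with GO–Rg3–DOX. Its GO–Rg3–DOX samples were above the untreated ones, and its GO samples below them. RPA1 rose after GO–Rg3–DOX (log2 fold change 0.69, SE 0.085, adjusted p = 4.32e-06), a call lost with library totals alone (0.27, adjusted p = 0.0512). RPA2 and RPA3 fell after GO (-0.54 and -0.88) and did not pass after GO–Rg3–DOX, where RPA3 was lower with library totals alone (-0.70, adjusted p = 6.96e-04). RPA3 also had the lowest log2 fold change of the 52 after GO–Rg3 (log2 fold change -0.84, SE 0.16, adjusted p = 0.0197), at 16.2, 25.6 and 20.6 CPM against 35.6, 37.8 and 37.8 CPM in untreated samples. Its exons overlap UMAD1 on the other strand.

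Of the Okazaki fragment enzymes, DNA ligase 1 rose and flap endonuclease fell after GO–Rg3–DOX. LIG1 stood at 54.3, 52.9 and 53.9 CPM in the untreated samples, 70.6, 65 and 69 with GO, 70, 48 and 59 with GO–Rg3, and 115.4, 103.05 and 102.95 with GO–Rg3–DOX. Its GO–Rg3–DOX and GO samples lay above the untreated ones. LIG1 rose after GO–Rg3–DOX (log2 fold change 0.997, SE 0.12, adjusted p = 2.43e-06), and after GO did not pass (log2 fold change 0.35, SE 0.12, adjusted p = 0.0267), but was higher there with the replicate block (0.34, adjusted p = 0.0092) and with the 6 samples alone (0.35, adjusted p = 0.00465). FEN1, the flap endonuclease, fell after GO–Rg3–DOX (-0.73) from 228, 222 and 222 to 131, 135 and 139 CPM, and with the GC content offset it was lower after GO (-0.25, adjusted p = 0.00859).

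Of the 4 genes of nucleotide supply, TK1, TYMS and RRM1 rose after GO–Rg3–DOX (25.5% of all genes tested), of which TK1 alone passed with library totals alone. TK1, thymidine kinase 1 of the salvage pathway, stood at 114.3, 101.05 and 106.2 CPM in the untreated samples, 137, 109.4 and 109.2 with GO, 138, 82.4 and 108.9 with GO–Rg3, and 223, 203 and 199.5 with GO–Rg3–DOX. GO–Rg3–DOX samples were above the untreated ones. TK1 rose after GO–Rg3–DOX (log2 fold change 0.96, SE 0.15, adjusted p = 4.58e-05) and did not pass after GO (log2 fold change 0.14, SE 0.15, adjusted p = 0.461). TYMS, thymidylate synthase, rose by 0.41 after GO–Rg3–DOX and fell after GO (-0.45). Its exons overlap ENOSF1 on the other strand by 967 bases, and with library totals alone it stood at -0.01 after GO–Rg3–DOX. RRM1, the large subunit of ribonucleotide reductase, rose by 0.54, and RRM2, the small one, did not pass (0.15) except with the GC content offset (0.45, adjusted p = 1.60e-05).

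The side of 0 that a gene took after GO–Rg3–DOX went with the base composition of its exons. GC content (GRCh37 annotation) had a median of 44.6% in the 20 genes that fell (38.3 to 52.2%), 56.6% in the 16 that rose (43 to 65%) and 48.3% in the 16 that passed in neither direction. Across the 52 genes, which share libraries and are not independent replicates, Spearman's rho of the log2 fold change with GC content was 0.637 after GO–Rg3–DOX, 0.461 after GO and -0.454 for GO–Rg3 against GO, and across 16622 genes with a value it was 0.351, 0.427 and -0.426. Replicates of 1 group differed in the same way: across the 52, rho of the log2 ratio of GO–Rg3 replicate 1 to replicate 2 with GC content was 0.756, with CDT1 highest (1.43) and RPA3 lowest (-0.66). For GO replicate 1 against replicate 2 it was 0.721. The part of GC content in the differences between groups was not tested apart from an offset for it. That offset left 21 genes lower and 18 higher after GO–Rg3–DOX, among them 20 of the 20 and 14 of the 16 (all but E2F1 and CCND1), and it added CDT1 to those lower and RB1, MCM6, POLA1 and RRM2 to those higher. Of all 17092 genes tested, the offset left 4751 lower and 5302 higher there. Of the 52, it left 6 more than 2-fold lower (E2F8, RBL1, CCNE1, ORC2, GMNN and RFC4) where 14 had been, and POLD1 at 0.46. After GO it left 29 lower, 25 of them among the 27 (all but ORC2 and POLA1), 5 higher (E2F2, E2F7, RBL1, CDK6 and GINS1) and PCNA as the 1 gene more than 2-fold lower. Of all genes tested, it left 2610 lower and 2499 higher after GO.

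**Figure D5:**
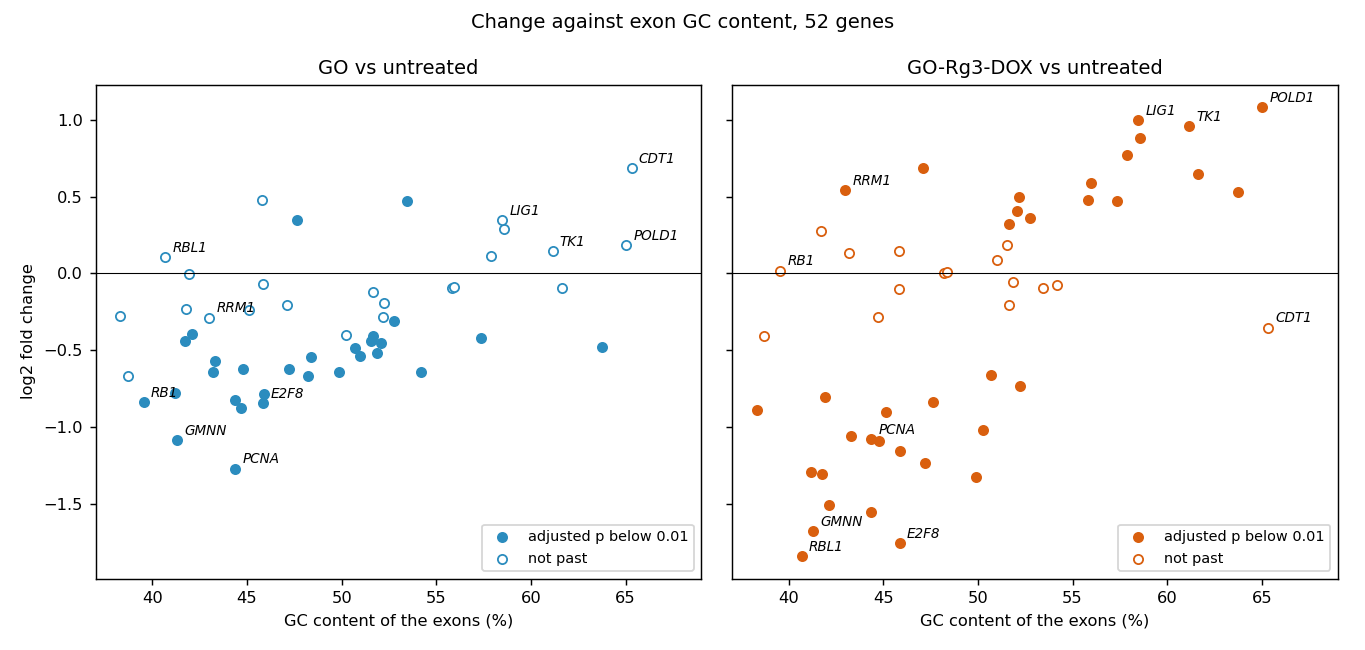
Log2 fold change of each of the 52 genes (vertical axis) against the GC content of its exons (%, horizontal axis), after GO and after GO–Rg3–DOX; filled points passed an adjusted p of 0.01 in edgeR. After GO–Rg3–DOX, GC-poor genes such as RBL1 and GMNN lie at the bottom left and GC-rich ones such as TK1 and POLD1 at the top right, with RRM1 (GC-poor, higher) and CDT1 (GC-rich, not past) as exceptions.

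Scaling also bears on the split after GO–Rg3–DOX. With library totals alone the median of all genes moved from -0.06 to -0.47 and that of the 52 from -0.08 to -0.50. Of the 52 genes, 11 changed sign, and 3 of these had been called as risen (CDK2, RFC2 and TYMS). After GO the same scaling moved the median of all genes to -0.11 and left 26 of the 52 lower and 0 higher in edgeR. Of all genes tested, 2782 were lower and 1223 higher there. For GO–Rg3 against GO, 14 higher genes became 1 (PCNA) when only the 6 samples compared were fitted. Over all genes tested, the higher ones went from 1254 to 163 in that fit, so the loss was not particular to the 52. Of the 52, 8 were higher without GO replicate 3 (609 of all genes) and 8 without GO–Rg3 replicate 2 (684 of all genes). Without GO–Rg3 replicate 3 it was 6 (501 of all genes). The 6 (CCND1, CCNE1, CDC6, MCM6, MCM10 and PCNA) were among the 8 in each. With the replicate block ORC6, PRIM1, RFC4 and RFC5 were higher as well (18 genes, beside 1810 of all genes). With the GC content offset 12 of the 14 passed (not GMNN or POLA1) among 20, beside 1635 of all genes. The 14 were E2F8, RB1, CCND1, CCNE1, ORC1, CDC6, GMNN, MCM4, MCM6, MCM10, POLA1, POLA2, PCNA and RFC3.

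Groups that did not overlap were common among all genes and are given with that background. After GO, 42 of the 52 genes had no overlap with untreated samples, 37 of them lower, and 58.52% of all genes did not overlap. After GO–Rg3 the count was 22 (19 lower; 25.77% of all genes), after GO–Rg3–DOX 44 (23 lower; 75.33% of all genes) and for GO–Rg3 against GO 33 (32 higher; 39.03% of all genes). The median SD of log2 CPM of the 52 within a group was 0.0402 in untreated samples, 0.120 with GO, 0.110 with GO–Rg3 and 0.086 with GO–Rg3–DOX. Untreated replicates held no gene with a more than 1.5-fold range, against 7 genes after GO, 5 after GO–Rg3 (CDT1, MCM5, POLD1, RPA3 and TK1) and 2 after GO–Rg3–DOX (CCNE2 and ORC6).

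A wider list of 60 genes of replication and its E2F and DREAM control, 59 of them tested, gave 25 lower (42.4%; 15.4% of all genes tested) and 4 higher (6.78%; 12.1% of all genes) after GO. After GO–Rg3 it gave 0 and 0 in edgeR, and after GO–Rg3–DOX 31 lower (52.5%; 30.5% of all genes) and 12 higher (20.3%; 25.5% of all genes). Between GO–Rg3 and GO, 19 were higher (32.2%; 7.34% of all genes) and 5 lower (8.47%; 6.25% of all genes). SLBP, the histone mRNA stem-loop binding protein, stood at 144, 147 and 141 CPM in the untreated samples, 74.5, 85.4 and 73.5 with GO, 110.1, 130.2 and 122.1 with GO–Rg3, and 27.8, 27.3 and 26.1 with GO–Rg3–DOX. Its samples of each treatment were below the untreated ones. SLBP fell after GO–Rg3–DOX (log2 fold change -2.41, SE 0.099, adjusted p = 8.58e-11) and after GO (log2 fold change -0.89, SE 0.093, adjusted p = 8.15e-06). LIN54, the DNA-binding subunit of the DREAM complex, fell furthest after GO–Rg3–DOX (log2 fold change -2.61, SE 0.17, adjusted p = 4.56e-09), followed by SLBP, DBF4, which activates the CDC7 kinase at origins (-2.26), POLD3, an accessory subunit of polymerase delta (-2.14) and ORC5 (-2.14). More than 2-fold rises were found in CHTF18, of an alternative clamp loader (log2 fold change 1.32, SE 0.22, adjusted p = 8.01e-05), ASF1B, a histone chaperone (1.28), MYBL2, a transcription factor of the cell cycle (1.09) and POLD2 (1.04). Polymerase delta thus had subunits on both sides, POLD1 and POLD2 higher and POLD3 lower.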

How the data were processed

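The authors sequenced polyadenylated RNA with a stranded kit, processed reads with NGI-RNAseq (build GRCh37), and used featureCounts to count them over Ensembl genes (version, annotation release and strand setting not given in the sources used here). They deposited unnormalized integer counts of 63677 genes, which summed to 390901242 over the 12 samples. The kit has no molecular identifiers, so such depths speak of counting error only. Samples were grouped by their labels.

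The filter kept 17092 genes, those reaching 10 counts in 3 or more samples. edgeR 4.0.16 (R 4.3.3) scaled them by TMM and tested them by its quasi-likelihood test in 1 model of all 12 samples without a replicate block, with Benjamini-Hochberg adjustment in each comparison. The threshold was an adjusted p of 0.01, and as a further rule an absolute log2 fold change over 1; the SE is the absolute log2 fold change divided by the square root of F. On simulated counts for GO–Rg3–DOX against untreated cells (17092 genes, 200 of them shifted by 1 on the log2 scale), 150 of the 200 were recovered, 139 of the 148 at 1 CPM or more, with 1 false call.

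The 52 genes, their roles and the 60 further genes were chosen with earlier results of these data known. The values of all 12 samples are given for the genes past both thresholds in any comparison and, in a role without one, for that with the largest change after GO–Rg3–DOX (20 genes). Other genes, some with the values of 1 or more groups, were named after their values were seen. Of the wider list, up to 5 genes a direction past both thresholds and at 1 CPM or more are named, and SLBP was given per sample after its values were seen. Symbols RBL1 and RFC2 each have a further row in the table, which holds at most 8 counts in a sample and was not used. Exon lengths and GC content come from GENCODE v44 lifted to GRCh37. Since the strand setting is unknown, genes whose exons overlap another gene are uncertain: CCND1, CCNE2, CDK2, CDK4, FEN1, GINS1, GINS2, MCM7, PRIM1, RFC4, RFC5, RPA1, RPA3 and TYMS with protein-coding genes, POLA2 and POLD1 with read-through models and PRIM2 with a pseudogene. The alternatives tried were RLE scaling, library totals, 2 other filters (none; 10 counts in every sample), DESeq2 1.42.0, a block for replicate number, a GC content offset (loess, span 0.5) with and without the block, an adjusted p of 0.05, the 6 samples of a comparison alone and each sample left out. Tables and plots were made with Python 3.11.15, pandas 2.3.3 and matplotlib 3.10.9.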

Additional observations from a re-analysis of the deposited data

How the results depend on the processing

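For the 20 genes chosen by the rule for per-sample values, 38 changes were called and refitted under 16 settings each. Of these 608 values, 578 kept their direction and call, 30 kept the direction but not the call, and 0 changed sign. Over all 52 genes, 79 changes were called. Of 1659 refitted values, which also leave out samples of the other groups, 1521 kept the call, 138 lost it and 0 passed in the opposite direction, and 112 values passed that had not. The counts of genes that fell after GO (21 to 32) and after GO–Rg3–DOX (20 to 25) stayed within 1.5 times the reported ones. Over all genes tested, the lower ones ranged from 1793 to 3844 after GO and from 4590 to 7297 after GO–Rg3–DOX. Other counts of the 52 moved further, and the cause was not tested. Genes higher after GO (2) were 0 with library totals alone, 4 with the replicate block, 5 with the GC content offset, 5 with that offset and the block, 5 at an adjusted p of 0.05, and 1 to 3 when 1 replicate of the groups compared was left out, as in the ranges that follow. Over all genes tested, 2074 were higher after GO, and 1223 with library totals alone. With the block 2601 were higher, with the offset 2499, with offset and block 2725, and 3433 at an adjusted p of 0.05. More than 2-fold lower after GO (2) was 1 with the GC content offset, with or without the block, and RPA3 joined the 2 without GO replicate 1. After GO–Rg3, genes lower (0) were 3 without a filter, 3 in DESeq2, 1 with the replicate block, 2 with the GC content offset with or without the block, 3 at an adjusted p of 0.05 and 0 to 1 with 1 replicate left out, also for more than 2-fold. Genes higher after GO–Rg3 (0) were 1 in DESeq2 and 1 with the GC content offset with or without the block. Over all genes tested, 18 were lower after GO–Rg3, and 420 (of 35604) without a filter, 259 in DESeq2 and 66 with the block. With the offset 90 were lower, with offset and block 154, and 214 at an adjusted p of 0.05. Of all genes, 10 were higher, and 72 in DESeq2, 47 with the offset and 83 with offset and block. After GO–Rg3–DOX, 3 genes were higher with library totals alone (2149 of all genes tested), and 6 were more than 2-fold lower with the GC content offset with or without the block. Counts of all genes past 2-fold under these settings are not given. More than 2-fold higher after GO–Rg3–DOX (1) was 3 with RLE scaling and in DESeq2, 0 with library totals alone and with the GC content offset with or without the block, 2 with 10 counts in every sample and with the 6 samples alone, and 0 to 3 with 1 replicate left out. For GO–Rg3 against GO, genes lower (0) were 0 to 1 and genes higher (14) were 6 to 17 with 1 replicate left out, and the latter were 23 with the GC content offset and the block and 1 with the 6 samples alone. Over all genes tested, the higher ones (1254) were 1817 with offset and block and 163 with the 6 samples alone.

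Samples that shared a replicate number were weakly alike in part. The deviations of samples with 1 number from the means of their groups correlated at 0.0914 on average, against -0.0451 for other numbers. Of 12 pairs, 4 exceeded 0.1 (0.173 to 0.239), all between replicates 1 or 2 of GO–Rg3 and those of untreated cells or GO. The replicate block changed 0 of the 38 calls and lost 0 of the 79, and made 8 more: CCNE2 lower, CDT1 higher and LIG1 higher after GO, GMNN lower after GO–Rg3, and ORC6, PRIM1, RFC4 and RFC5 higher after GO–Rg3 than after GO. The simulation recovered 150 of 200 genes changed 2-fold, and 139 of the 148 at 1 CPM or more. It tried no smaller change and drew samples independently, without the GC-linked differences between replicates. Smaller changes can be missed at 3 samples a group, but how often was not tested.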
